A study of Drosophila melanogaster with 4 samples.

Results

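The Enhancer of split complex is a cluster of Notch target genes on chromosome arm 3R of Drosophila melanogaster. The stretch described here is the window from 21815000 to 21880000 of 3R on FlyBase release 5, and every H3K4me3 peak that overlaps this window was taken. The rule found 8 peaks of the 1593 on 3R and of the 7425 in the whole deposited list. The window holds 13 genes of the complex, 8 of which are named members. These 8 are the bHLH genes E(spl)mdelta-HLH, E(spl)mgamma-HLH, E(spl)mbeta-HLH, E(spl)m3-HLH, E(spl)m5-HLH, E(spl)m7-HLH and E(spl)m8-HLH, and groucho (gro).

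H3K4me3, trimethylation of histone H3 at lysine 4, was profiled by ChIP-seq in whole embryos of 8 to 16 h. The labels list 2 ChIP libraries, made with a rabbit polyclonal antibody, and 2 input DNA libraries. All 4 come from the strain Y cn bw sp, for which the labels give the alleles y[1] and oc[R3.2], then Gr22b[1] and Gr22d[1], cn[1] with CG33964[R4.2], bw[1] and sp[1], and last LysC[1], lab[R4.2] and MstProx[1] together with GstD5[1] and Rh6[1]. Embryos were fixed in 1.8% formaldehyde for 15 min, and all tissues of the embryo were sampled together. The authors deposited 1 peak list with a score per peak that is their own value on an unstated scale, and it names no library. No value below therefore has a replicate error, the depth of each library is unknown, and no test was made.

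Notch is a receptor that is cut when it binds a ligand on a neighbouring cell, and its freed inner part works with the DNA-binding protein Su(H) to turn on target genes. The E(spl) bHLH proteins are the classical targets. They bind DNA as repressors, recruit the corepressor Groucho, and keep cells next to a neural precursor from becoming neural themselves. The complex also holds Bearded-family genes, whose small proteins act against the ubiquitin ligase Neuralized in the signalling cell, and Kaz-m1, which encodes a Kazal-type protease inhibitor. H3K4me3 is found at the start of active genes.

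The mark was called over 5 of the 13 genes of the complex, and its highest score in the complex was over gro. The peak there scored 301.57. The bHLH genes with a peak were E(spl)mbeta-HLH at 126.69, E(spl)m3-HLH at 47.67 and E(spl)m7-HLH at 23.82. The Bearded-family gene E(spl)m2-BFM had the lowest score, 13.99. The other 8 genes had no peak over them, among them the 4 bHLH genes E(spl)mdelta-HLH, E(spl)mgamma-HLH, E(spl)m5-HLH and E(spl)m8-HLH. On 3R as a whole, 1740 of 3387 protein-coding genes, or 51.4%, were overlapped by a peak by 1 bp or more. Among the 1400 genes no longer than Kaz-m1, the longest of the 12 short genes of the complex at 1767 bp, the share was 40.1%. The complex had 38.5% of its 13 genes overlapped, and its 12 short genes 33.3%. By this overlap rule the number of genes with a call was thus near the background of short genes. With a call defined instead by either end of a gene inside a peak, 2 of the 13 passed, E(spl)mbeta-HLH and gro. The share was 40.1% for all genes of 3R and 36.3% for the short ones. Of the 12 short genes of the complex, E(spl)mbeta-HLH alone passed, so by this rule the complex fell below both shares. With either end within 250 bp of a peak 6 passed, now with Kaz-m1, against 51.3% of all and 43.5% of short genes. Within 500 bp the same 6 passed, against 55.5% and 46.9%. A call means that a peak passed the authors' threshold. In whole embryos a mark on few cells and a weak mark on many cells cannot be told apart.

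**Figure D1:**
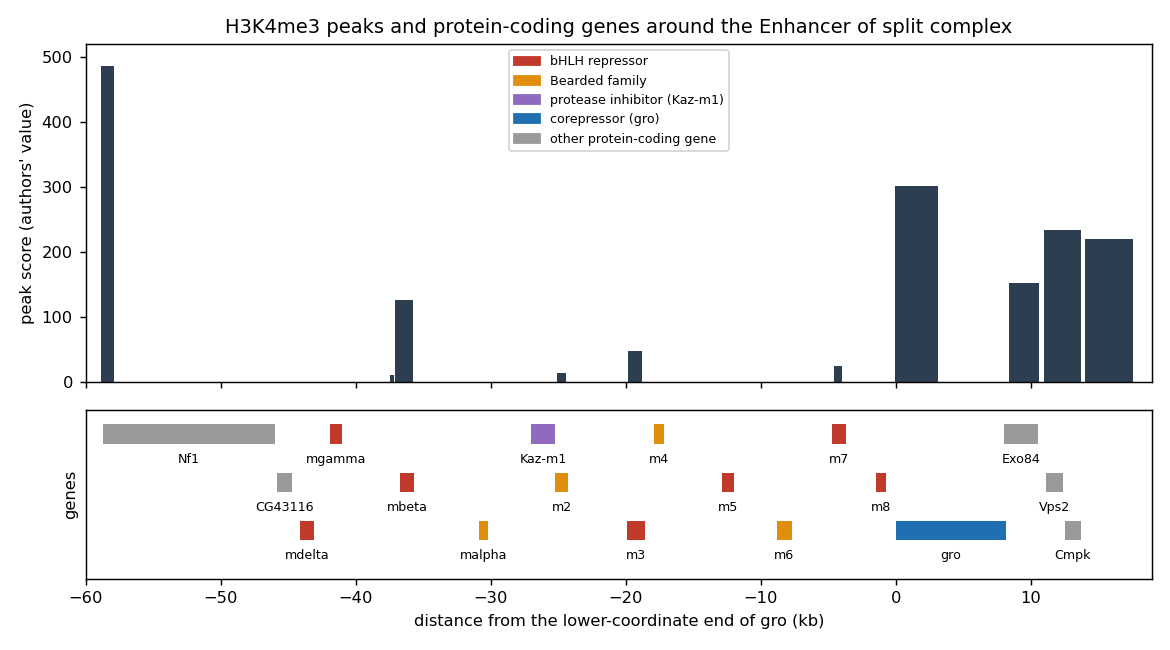
Peaks (top, bar width is peak width and bar height is the authors' score) and protein-coding genes (bottom, coloured by class and spread over 3 rows for legibility) against distance in kb from the lower-coordinate end of gro. Peaks over the bHLH and Bearded-family genes score 126.69 or less, while the gro peak scores 301.57 and Nf1, below the complex, has a peak of 485.47; the peak farthest to the right, at 220.43, lies past the window over genes not drawn.

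Among the bHLH repressors, 3 of 7 had a peak, or 42.9%. E(spl)mbeta-HLH carried the main one, at 3R 21830397 to 21831699, 1303 bp wide. It covered 95.3% of the 978 bp gene and ran 371 bp beyond its lower-coordinate end, stopping 46 bp short of the upper one. Its score was higher than that of 53.9% of 3R peaks. Its score was also close to the median of 119.4 for the 138 peaks of 3R within 10% of its width. A second small peak, at 3R 21830035 to 21830331, lay 65 bp away. That peak was 297 bp wide, scored 11.21 and overlapped no protein-coding gene, only the long noncoding RNA gene lncRNA:CR45038.

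E(spl)m3-HLH had a peak at 3R 21847656 to 21848646, 991 bp wide with a score of 47.67, above 38.5% of 3R peaks. The peak covered 75.9% of the gene and lay wholly inside it, 111 bp from the lower end and 203 bp from the upper end. E(spl)m7-HLH had a narrower one at 3R 21862896 to 21863508, 613 bp wide with a score of 23.82, above 30.3% of 3R peaks. It too lay wholly inside its gene, 136 and 233 bp from the ends, and covered 62.4% of it. For their widths neither stood far from the rest of the arm, where peaks within 10% of the same width had median scores of 55.9 for E(spl)m3-HLH and 20.1 for E(spl)m7-HLH. In order of score the bHLH genes thus ran from E(spl)mbeta-HLH through E(spl)m3-HLH to E(spl)m7-HLH. With 1 score per peak it cannot be said which of these neighbours differ beyond error.

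The 4 bHLH genes without a peak differed in how far they lay from one. E(spl)m8-HLH was 644 bp from the gro peak. E(spl)mgamma-HLH was 3552 bp from the nearest peak, E(spl)mdelta-HLH 5680 bp and E(spl)m5-HLH 5930 bp. E(spl)mdelta-HLH and E(spl)mgamma-HLH, together with their neighbour CG43116, sat in a gap of 20479 bp between the Nf1 peak and the small peak beside E(spl)mbeta-HLH. This gap was longer than 81.0% of the 1592 gaps between neighbouring peaks of 3R. A gap that holds whole genes must be at least as long as they are. Of all gaps, 17.3% held 2 or more whole protein-coding genes.

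Of the 4 Bearded-family genes, E(spl)m2-BFM alone had a peak, at 3R 21842351 to 21843031. The peak was 681 bp wide and covered 71.2% of the gene from the inside, 115 and 161 bp from its ends. Its score of 13.99 was higher than that of 21.3% of 3R peaks and below the median of 24.3 for peaks within 10% of its width. Kaz-m1 lay 142 bp from this peak without touching it. E(spl)malpha-BFM was 4916 bp from the nearest peak, E(spl)m6-BFM 3127 bp and E(spl)m4-BFM 897 bp. E(spl)m4-BFM, E(spl)m5-HLH and E(spl)m6-BFM lay together in a gap of 14249 bp between the peaks of E(spl)m3-HLH and E(spl)m7-HLH. Of all 1592 gaps of 3R, 207 held 3 or more whole protein-coding genes, and the fullest held 27. The 8 genes of the complex without a peak lay a median of 3340 bp from one, against 8587 bp for the 1647 genes of 3R without a peak.

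**Figure D2:**
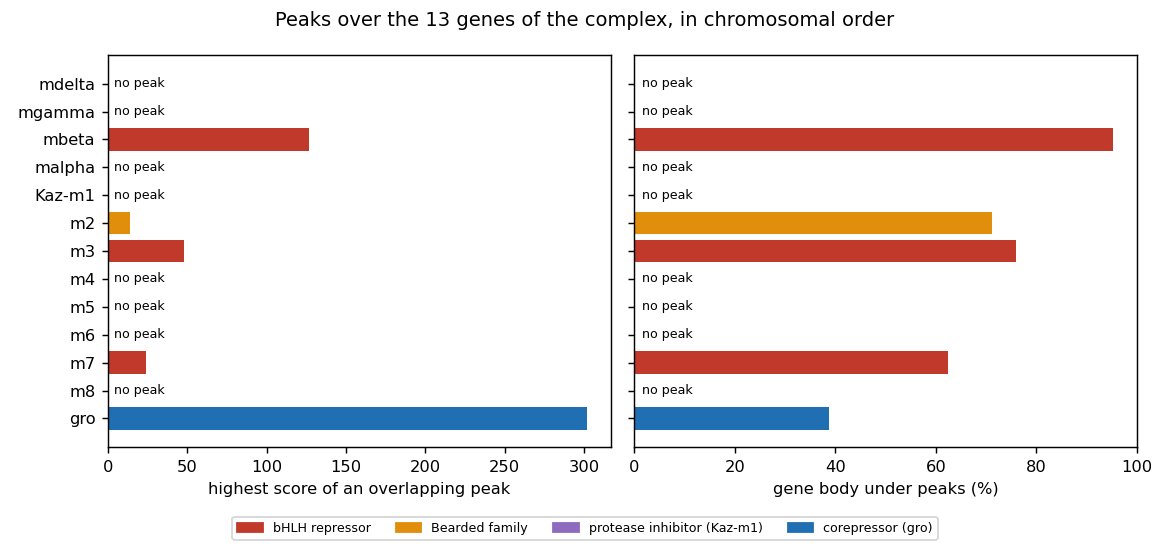
The 13 genes of the complex in chromosomal order, with the highest score of an overlapping peak (left, the authors' score) and the percentage of the gene body under peaks (right), coloured by gene class. The 4 short genes with a peak have 62.4 to 95.3% of their body covered but scores of 126.69 or less, whereas gro has 38.6% covered and a score of 301.57.

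Groucho, the corepressor that the bHLH proteins recruit, is also used by many repressors outside Notch signalling and is made throughout the embryo. Its peak, at 3R 21867374 to 21870616, was 3243 bp wide, and it exceeded 84.5% of the peaks of the arm by score and 85.4% by width. It began 84 bp before the lower-coordinate end of the gene and ended 5017 bp before the other, covering 38.6% of the 8176 bp gene. Its score was above the median of 259.7 for peaks within 10% of its width, and 61.1% of those peaks scored lower. It was the widest and the highest-scoring of the 8 peaks of the window.

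Where a short gene of the complex was marked, its score was low for a marked gene. This comparison is by gene, so a peak over several genes counts once for each of them. Across the 1740 marked protein-coding genes of 3R the median of the highest score was 227.4, and across the 562 marked genes no longer than Kaz-m1 it was 253.0. The 4 marked short genes of the complex had a median of 35.7. Of the 562 marked short genes, 3.20% scored below E(spl)m2-BFM, 5.87% below E(spl)m7-HLH, 10.7% below E(spl)m3-HLH and 22.4% below E(spl)mbeta-HLH. By peak the ranks were higher. Among 3R peaks within 10% of the same width, 18.4% scored below the peak of E(spl)m2-BFM and 59.5% below that of E(spl)m7-HLH. For E(spl)m3-HLH this was 38.7% and for E(spl)mbeta-HLH 52.2%. Set among all 1740 marked genes, gro scored higher than 70.4%. Few of the marked short genes of the arm had a peak placed as in the complex. In 3 of these 4 genes of the complex the peak lay wholly inside the gene, while among the 562 marked short genes of 3R this held for 54, or 9.61%, and 337 or 60.0% were covered from end to end. A peak can lie wholly inside a gene only if it is the narrower, and these shares were not matched for peak width or gene length. All of these values are descriptions of 1 list, and score and width come from the same peak call.

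**Figure D3:**
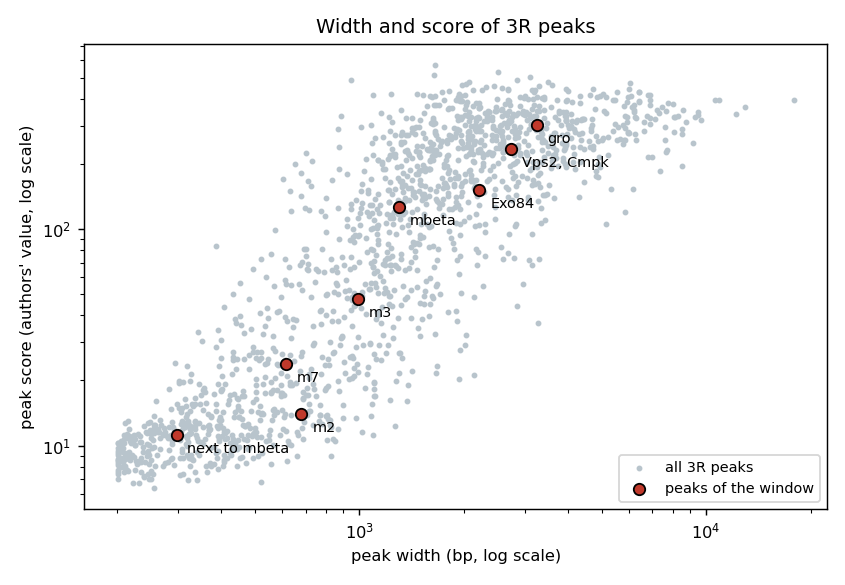
Width in bp and the authors' score of the 1593 peaks of 3R (grey) and the 8 peaks of the window (red), both axes on a log scale. Red points are named by the protein-coding gene the peak overlaps. The peak that overlaps none, 297 bp wide with 11.21, is named as next to mbeta. The peaks over E(spl)m2-BFM, E(spl)m7-HLH and E(spl)m3-HLH lie below the medians of 1291 bp and 103.7 for the arm, with scores of 13.99 to 47.67. The peak over E(spl)mbeta-HLH, 1303 bp wide with 126.69, lies just above both medians. Those over gro and its neighbours also lie above both, with 151.74 or more.

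Of the other protein-coding genes overlapping the window, Nf1, Exo84, Vps2 and Cmpk had a peak. CG43116, the direct neighbour of the complex, had none and lay 7317 bp from the nearest. The peaks of Exo84 and of Vps2 with Cmpk scored above 58.3 and 72.9% of 3R peaks. Among peaks within 10% of their widths, only 15.4 and 33.3% scored lower. Exo84, a subunit of the exocyst that tethers secretory vesicles, had a peak at 3R 21875851 to 21878069 with a score of 151.74, covering 84.3% of the gene. Vps2, a subunit of the ESCRT-III membrane-cutting complex, and Cmpk, a nucleotide kinase, shared a peak at 3R 21878438 to 21881179 with a score of 234.2, which covered both genes in full. That last peak reached 1179 bp past the window. On the other side Nf1, which encodes the Ras regulator neurofibromin, had a narrow and very high peak at its lower-coordinate end, at 3R 21808610 to 21809555. It was 946 bp wide and scored 485.47, higher than 99.6% of 3R peaks, but lay outside the window by its position. It was the only peak in the 65001 bp below the window, where 1 of 5 protein-coding genes was overlapped, against 7 of 10 in the same length above it. The first peak past the other edge, at 3R 21881429 to 21885050, scored 220.43 and covered several further genes.

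The stretch with the bHLH and Bearded-family genes had lower-scoring peaks and less of its length covered than the stretch from gro onwards. From E(spl)mdelta-HLH to E(spl)m8-HLH, a stretch of 43.4 kb, there were 5 peaks with scores of 11.21 to 126.69 and a median of 23.8, and they covered 8.95% of it. From the lower end of gro to the window's edge, 12.5 kb, there were 3 peaks with scores of 151.74 to 301.57 and a median of 234.2, and they covered 55.3%. This split was drawn after the values were seen, and the shares are of whole stretches, not of genes. By gene, the 4 marked short genes of the complex had 62.4 to 95.3% of their body under peaks. In the other stretch gro had 38.6%, Exo84 84.3%, and Vps2 and Cmpk 100%. Over all 12 short genes of the complex, marked or not, the median was 0%. The peak scoring 11.21 overlapped lncRNA:CR45038 and no protein-coding gene.

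Against windows of the same 65001 bp placed every 1000 bp along 3R, the number of peaks was above the middle and the scores were below it. The window held 8 peaks where the median window held 3, with quartiles of 1 and 6, and 17.4% of 27829 windows held as many or more. Peaks covered 16.8% of it, against a median of 5.75%, and 23.8% of windows were covered as much or more. The median score of its peaks was 87.2, against a median of 111.6 over the 21048 windows with a peak, 61.8% of which had as high a median score or higher. Its median width of 1147 bp was likewise below the 1346 bp of these windows. Neighbouring peaks in it stood 65 to 14249 bp apart, with a median gap of 4624 bp. Over the 17359 windows with several peaks the median was 799 bp, with quartiles of 362 and 5565.5 bp. Of those windows, 27.9% had as long a median gap or longer. The longest gaps, of 14249 and 10651 bp, lay between peaks over short genes of the complex, and the next, of 5234 bp, between the peaks of gro and Exo84. The peaks of Exo84 and of Vps2 with Cmpk were 368 bp apart.

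The window is rich in genes, which the comparison above leaves aside. It was overlapped by 18 protein-coding genes, where the median window had 8, and 7.05% of windows had as many or more. Among those 1961 gene-rich windows the median number of peaks was 10, and 39.8% had 8 or fewer. Their median coverage was 29.1%, and 19.8% were covered as little as this window or less. Set against all windows of its own length, gene-poor ones included, the stretch from E(spl)mdelta-HLH to E(spl)m8-HLH had more peaks than most, with lower scores. It holds the 12 short genes of the complex, and it was not compared with windows as rich in genes. Its 5 peaks compare with a median of 1, and 22.5% of windows held as many or more. Its coverage of 8.95% compares with a median of 4.23%, and 36.9% of windows were covered as much or more. Its median score of 23.8 was matched or exceeded in 86.2% of the 18181 windows with a peak. Overlapping windows share peaks and are not independent.

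**Figure D4:**
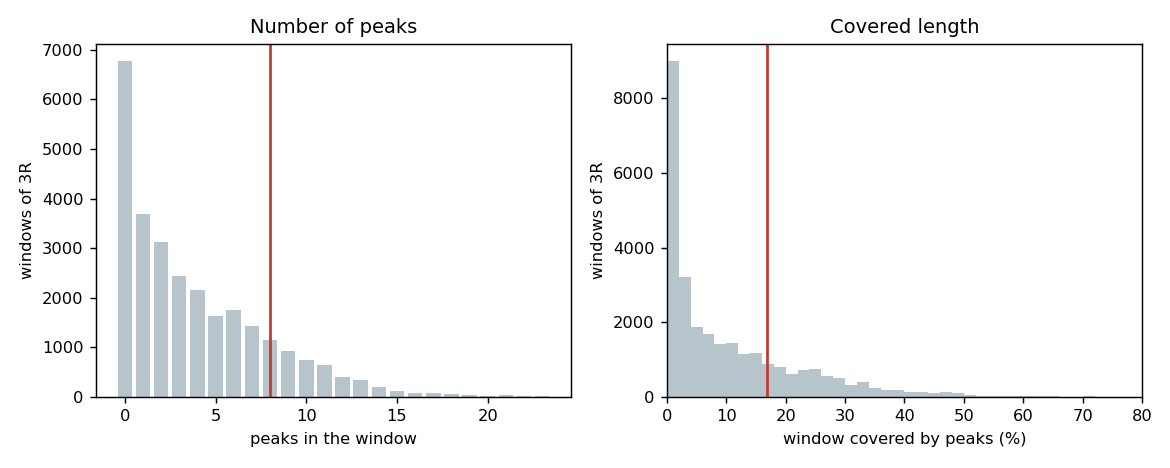
Number of windows of 65001 bp along 3R by the number of peaks they hold (left) and by the percentage of their length under peaks (right), with the Enhancer of split window as a red line. The line stands at 8 peaks and 16.8%, to the right of the medians of 3 peaks and 5.75%.

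A chosen list of 8 other genes on 3R was also examined, and all were marked. They act in Notch signalling, or in the case of cwo are related to its targets. The list is not a full set of such genes, and it was chosen with earlier results of these data known. Of 8 genes, listed as Delta, Ser, H, neur, Nct, rumi, CtBP and cwo, 8 were overlapped by a peak, against 51.4% of all protein-coding genes of 3R. Peaks covered a median of 13.2% of these genes, from 8.70% of Ser to 93.6% of rumi. Of these, 7 are longer than Kaz-m1, the exception being rumi at 1584 bp, and the median length was 13561 bp. Among all 3R genes longer than Kaz-m1, 59.3% were overlapped, against 40.1% of the shorter ones, so this count cannot be set directly against that of the short target genes. Nor was the 59.3% matched to genes as long as most of these 8. CtBP and H scored highest. CtBP, a corepressor used by Hairless, had a peak of 405.41. Hairless itself (H), the adaptor that turns Su(H) into a repressor, had 2 peaks, the higher at 329.67. The peak of CtBP and the higher one of H began at the lower-coordinate end of the gene, 100 and 104 bp before it. These scores were above 96.4% and 88.9% of 3R peaks.

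The other 6 genes scored lower. Nct, a subunit of the protease that cuts Notch, had a peak of 267.74 covering 74.4% of the gene. The bHLH repressor cwo, a relative of the E(spl) proteins known from the circadian clock, had a peak of 193.35. The ubiquitin ligase neur, which drives uptake of the ligand, had 2 peaks, the higher at 131.19 and inside the gene. Of the ligands, Delta had a peak of 103.45 that ended 34 bp before its upper-coordinate end. Rumi, a sugar transferase that acts on Notch, had a peak of 90.93. The other ligand, Ser, had 2 low peaks, the higher scoring 21.56 and lying inside the gene. The median of the highest score over the 8 pathway genes was 162.3, against 227.4 over all marked genes of 3R. The score of gro lay between those of H and Nct, and that of Ser lay below E(spl)m7-HLH, so the score ranges of pathway and complex genes overlapped.

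Gene positions come from a table of release 6, and 4174278 was subtracted from them to reach release 5. The list itself was used to check this number. Outside the window, 29.3% of 1585 peaks of 3R had the lower-coordinate end of a protein-coding gene within 100 bp of their lower edge. With genes shifted by 1000 to 10000 bp either way this was 3.53 to 7.38%. Among the 258 peaks within 2 Mb of the window it was 29.8%, against 2.33 to 6.98% with the shifts. In both sets no other shift tried gave a higher share. The table gives no strand, so which end of a gene is its start was not used.

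**Figure D5:**
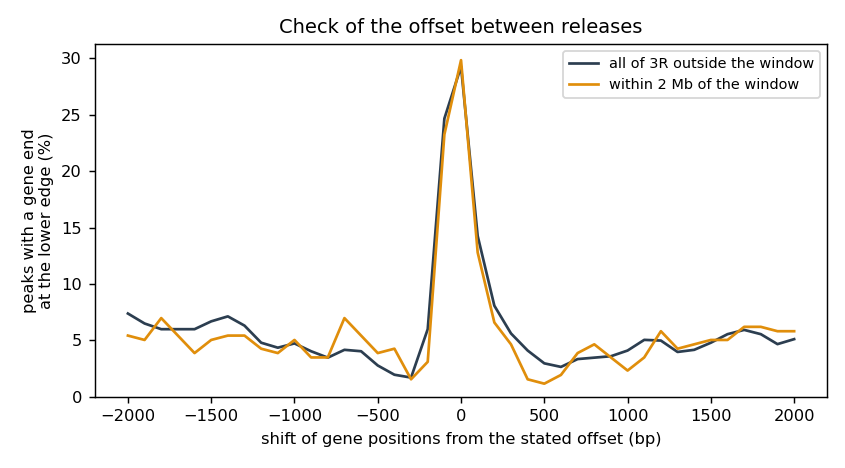
Percentage of peaks whose lower edge has the lower-coordinate end of a protein-coding gene within 100 bp, by shift of the gene positions in bp from the stated offset, for 3R outside the window (dark) and within 2 Mb of the window (orange). Both lines have their maximum at no shift, at 29.3% and 29.8%.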

How the data were processed

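The only file used was the peak list of the whole series. Per the file headers, it is on FlyBase release 5 and names MACS as its source. Per the submitters' processing notes, the tools were MACS2, BWA and CASAVA (versions 1.7.0.2 and 1.7.0.3), and the build BDGP5. The score is deposited by the authors as 1 value per peak, and its scale and how libraries were combined are not given in the sources used here. Depth is unknown, so no interval for counting error could be given.

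Peak widths include both end bases. Gene names and ends came from RefSeq's table for release 6, and all 13 genes of the complex and all 8 pathway genes were matched by symbol. Genes at either end of 3R beyond the first or last peak were left out. A gene was called where its body overlapped a peak by 1 bp or more. A planned call at gene starts was not possible, because the table gives no strand. The planned promoter motifs were not analysed here. Genes named were the members, the rest of the complex, genes overlapping the window and the pathway list. The members and lists were chosen with earlier results of these data known. Python 3.11.15, numpy 2.4.6, pandas 2.3.3 and matplotlib were used, and counts were tested on simulated data. Alternatives changed the score threshold, merging, windows, the call and the offset.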

Additional observations from a re-analysis of the deposited data

How the results depend on the processing

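No paired analysis was possible because the peaks are not split by library, and leaving out a replicate was not possible either. Without the lowest 50% of peaks by score (98.41 or less), by construction fewer peaks remained, with 4 in the window and 2 complex genes overlapped, E(spl)mbeta-HLH and gro. Without the lowest 25% (19.04 or less) the peak of E(spl)m2-BFM was lost. Windows with as many peaks or more, 17.4% as deposited, made up 9.82% when peaks under 500 bp apart were joined and 3.95% when the limit was 1000 bp. Counting genes with either end inside a peak gave 2 of the complex. It gave 6, with Kaz-m1 added, within 250 or 500 bp, and 5 by overlap of the gene body. At shifted gene positions the share of peaks with a gene end at the lower edge, 29.3% at the stated offset, was 4.73 and 4.1% at -1000 and 1000 bp, 7.38 and 5.11% at -2000 and 2000 bp, 3.79 and 3.72% at -5000 and 5000 bp, and 3.53 and 3.97% at -10000 and 10000 bp. A further 31 recomputed values stayed within 1.5 times the reported one, a limit that a high share cannot pass by rising. They include windows with as high a median score or higher, 61.8% as deposited. These made up 76.3% without the lowest 50% of peaks, and 76.7 and 79.8% with peaks joined at 500 and 1000 bp. Values for the stretch from E(spl)mdelta-HLH to E(spl)m8-HLH, a change of stretch and not of processing, are also among them. Library depth is unknown, so genes without a peak were not detected at the authors' threshold.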
